A study of Homo sapiens with 12 samples.

Results

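The genes described here are 40 genes of protein folding and stress signalling in the endoplasmic reticulum (ER), chosen by name from the probe annotation of the array, and 38 of the 40 had a probe with 1 gene symbol. HERPUD1 and ERN1 had no such probe in the table and were not analysed here. Each gene was followed by its brightest probe over 12 Illumina BeadChip arrays, which carry 48803 probes. The arrays measured RNA of MDA-MB-231 cells, a basal breast cancer line that lacks the estrogen receptor. The labels give 4 groups of 3 arrays: cells with no siRNA, with a non-targeting pool of siRNA, with siRNA against cyclin D1 (gene CCND1) and with siRNA against the cyclin-dependent kinases CDK4 and CDK6. All groups were the same cell line, and RNA was taken within a day of transfection according to the study's legends. The labels do not say whether the 3 arrays of a group came from separate cultures. The study's legends, whose panels include the microarray analysis, speak of at least 3 independent experiments for their plots. They do not say which array came from which experiment, so p-values measure the spread between these arrays.

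The ER folds secreted and membrane proteins with chaperones such as HSPA5 (BiP), with disulfide isomerases and with prolyl isomerases such as PPIB (cyclophilin B). When unfolded protein builds up, sensors in the ER membrane act through 3 branches: IRE1 splices XBP1 mRNA, ATF6 is cut to release a transcription factor, and PERK (gene EIF2AK3) slows translation and raises ATF4 protein, which drives genes of amino acid supply and DDIT3 (CHOP). PPIB is also a common positive control target in siRNA work, although no label of this series names it.

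The levels of the targeted genes went against several labels. CCND1 read 13659, 2702 and 14977 on the arrays labelled no siRNA 1 to 3, 2951, 14187 and 4311 on the non-targeting arrays, 13878, 3513 and 5100 on the cyclin D1 siRNA arrays and 13952, 15393 and 4361 on the CDK4/6 siRNA arrays. CDK4 was low on CDK4/6 siRNA array 2 (409), non-targeting array 2 (275) and no siRNA array 3 (301), and lay between 2167 and 2771 on the other 9 arrays. The largest step between neighbouring arrays was 2.68-fold for CCND1, with 6 arrays on each side, and 5.30-fold for CDK4, with 3 arrays below it and 9 above. No array was moved or left out for this, and each is named by its label throughout. All 4 markers of basal cells (VIM, CD44, EGFR and CAV1) were above the background level of 44.2 on every array, with a summed intensity of 33387 to 36845. Markers of other cells summed to 208 to 226 for luminal breast cells, 331 to 488 for leukocytes and 166 to 187 for endothelial cells, and 1 of each list was above background on all 12 arrays: GATA3 (80.2 to 99.6), CD14 (245 to 400, which carries most of the leukocyte sum) and PECAM1 (87.8 to 106). CD3D was above background on 10 arrays and CDH1 on 8, both at most 49.2, and ESR1, FOXA1, PTPRC, CDH5 and VWF stayed at 46.1 or less on every array.

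ER stress can act on genes through short elements before their start sites, so such elements were looked for in the 250 bases upstream of each RefSeq start (GRCh38.p14). Of the 40 genes 37 have such a window, and PSPH, SLC7A11 and PDIA3 were not searched. Some genes have several starts and so several windows, and a match in any of them was counted. The ER stress response element (ERSE), CCAAT then 9 free bases then CCACG on either strand, stood before 7 genes, which is 18.9% of the 37 against 0.0916% of the 27305 genes with a window. 6 of the 7 encode folding proteins and the other is XBP1. Their sites follow, read along the element with its fixed letters in capitals, and they are shown because the genes that share them can be followed side by side on the arrays.
HSPA5, chr9:125241391-125241409: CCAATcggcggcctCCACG
HSP90B1, chr12:103930216-103930234: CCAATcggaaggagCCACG
HSP90B1, chr12:103930321-103930339: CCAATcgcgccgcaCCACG
CALR, chr19:12938384-12938402: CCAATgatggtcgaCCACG
CANX, chr5:179698778-179698796: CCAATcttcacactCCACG
PDIA6, chr2:10812853-10812871: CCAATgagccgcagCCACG
CRELD2, chr22:49918554-49918572: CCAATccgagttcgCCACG
XBP1, chr22:28800603-28800621: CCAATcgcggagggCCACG

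The site of HSPA5 lies 66 to 48 bases before its start. Its whole upstream stretch on chr9:125241344-125241593 (minus strand) is shown beside that of PPIB on chr15:64163023-64163272 (minus strand), the gene that varied most, in which none of the 5 elements searched was found. Capitals mark the ERSE.
HSPA5: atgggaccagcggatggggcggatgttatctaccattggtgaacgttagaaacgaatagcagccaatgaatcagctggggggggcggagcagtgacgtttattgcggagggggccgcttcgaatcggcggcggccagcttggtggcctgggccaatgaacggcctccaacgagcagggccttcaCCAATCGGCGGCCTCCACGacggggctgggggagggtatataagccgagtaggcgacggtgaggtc
PPIB: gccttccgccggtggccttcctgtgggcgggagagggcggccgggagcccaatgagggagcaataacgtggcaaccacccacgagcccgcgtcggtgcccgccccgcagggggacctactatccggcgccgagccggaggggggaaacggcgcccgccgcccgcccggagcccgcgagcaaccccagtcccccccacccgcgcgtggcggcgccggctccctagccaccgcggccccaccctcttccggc

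The second kind of ERSE (ERSE-II, ATTGG then 1 free base then CCACG) stood before SDF2L1, HYOU1 and HERPUD1 (8.11% against 0.0659% of all genes). The XBP1 element TGACGTGG was found before HYOU1 alone among the 37 (2.7% against 0.78%), where it overlaps an ERSE-II. The ATF4 element TGATGNAA stood before HERPUD1, ATF3, CHAC1 and ASNS (10.8% against 3.89%), and the cAMP element TGACGTCA before PPP1R15A (2.7% against 2.03%). For ATF3 and ASNS the ATF4 element stood in 1 window and not in the other. The ATF3 window with it is chr1:212565157-212565406, and the window without it is chr1:212614768-212615017. A match is a description of the letters and not of binding. The genes were chosen by name as ER folding and stress genes, so the shares are descriptions and were not tested.

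Of the 38 with a probe, 35 passed the filter (above background on at least 3 arrays) and 34 were above background on all 12. MANF, PDIA4 and VLDLR, at 33.1 to 44.6, did not pass, and PDIA3 passed on 6 arrays with a range of 39.7 to 48.4. The highest array over the lowest had a median ratio of 1.32 over the 35 genes, beside 1.29 over all 13601 genes that passed. It was at least 1.5 for 5 of them (PPIB, SLC3A2, ATF3, DDIT4 and HSPA5), while 13.0% of all genes reached it. The median ratio was 1.24 for the 12 folding genes tested, 1.27 for the 6 genes of XBP1, ATF6 and ER-associated degradation, and 1.36 for the 17 genes of PERK and ATF4.

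**Figure D1:**
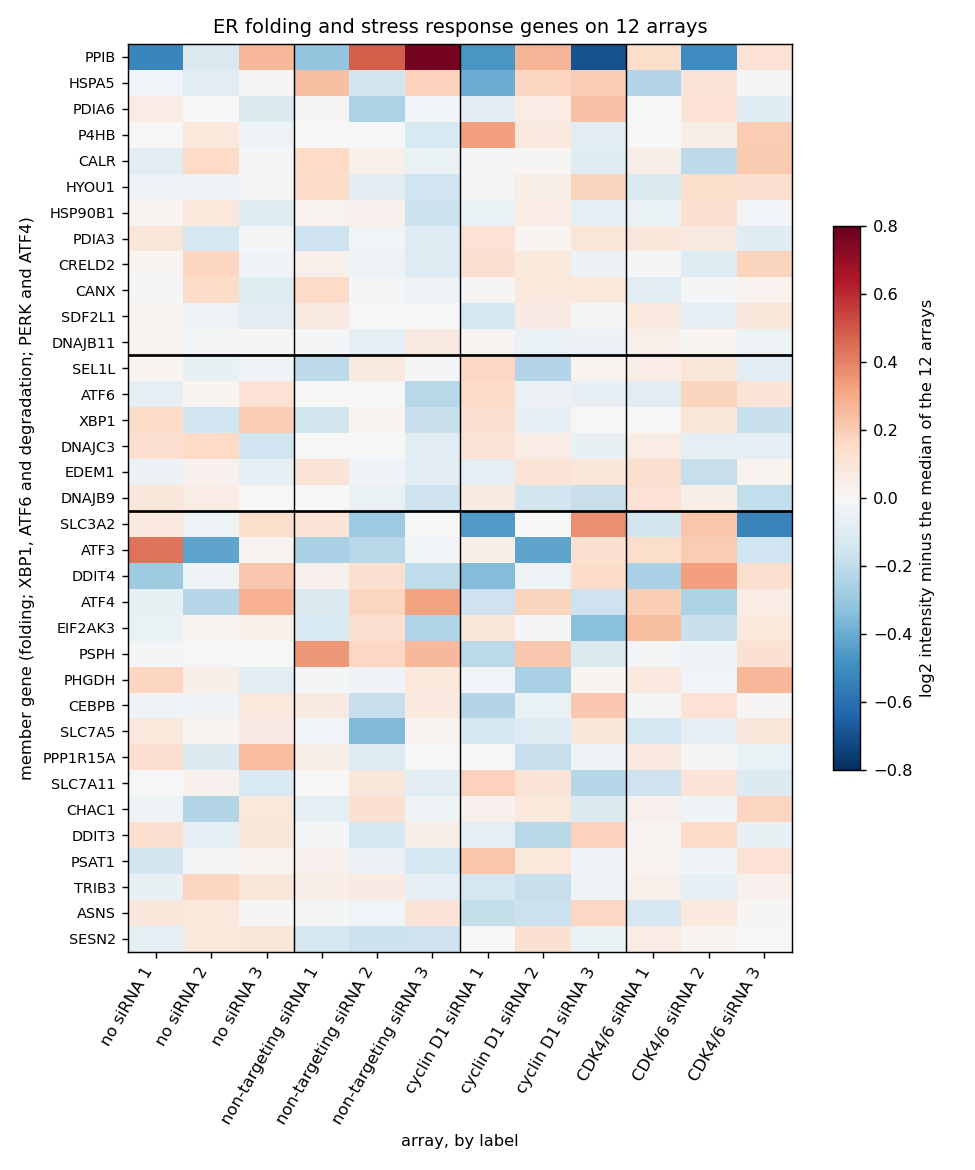
Each row is a gene and each column an array, ordered by label. Colour gives log2 intensity minus the gene's median over the 12 arrays, and black lines part the 3 branches and the 4 labels. PPIB, with a ratio of 2.76 between its highest and lowest array, has the widest range of colour, and no block of a label stands out.

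Among the folding genes PPIB was the exception. Its probe read 146, 194 and 253 on the arrays labelled no siRNA 1 to 3, 169, 295 and 358 on the non-targeting arrays, 152, 254 and 130 on the cyclin D1 siRNA arrays and 231, 149 and 228 on the CDK4/6 siRNA arrays. Non-targeting arrays 2 and 3 were the highest and cyclin D1 siRNA array 3 the lowest, and every label overlapped every other. The ratio of 2.76 was 19th of 13601 genes, and CDK4, CDK6 and CCND1 held ranks 1, 2 and 4. PPIB did not fall into levels as the siRNA targets did, since its largest step between neighbouring arrays was 1.22-fold, from 295 to 358. It has 1 probe, so no second probe could be set beside it. In RNA of whole cultures, fewer expressing cells and less RNA per cell cannot be told apart.

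PPIB showed no order by label or by the level of the siRNA targets. The 3 arrays with low CDK4 read 149, 295 and 253 for PPIB. The 3 arrays with high CCND1 and high CDK4 read 146, 152 and 231, and the 6 with low CCND1 ran from 130 to 358, which spans the whole range. Arrays with high and with low PPIB were thus found at each CCND1 and CDK4 level and under each label. These sets were picked on measured levels, so no test was run on them.

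The other folding genes varied less. HSPA5, the chaperone that also holds the ER stress sensors inactive, read 871, 833 and 891 on the no siRNA arrays, 1048, 801 and 1006 on the non-targeting arrays, 673, 996 and 1017 on the cyclin D1 siRNA arrays and 753, 950 and 880 on the CDK4/6 siRNA arrays. Its lowest arrays were number 1 of cyclin D1 siRNA and of CDK4/6 siRNA, its highest was non-targeting array 1, and all groups overlapped. PDIA6, a disulfide isomerase, read 818, 787 and 725 on the no siRNA arrays, 790, 660 and 773 on the non-targeting arrays, 740, 821 and 923 on the cyclin D1 siRNA arrays and 786, 851 and 734 on the CDK4/6 siRNA arrays. P4HB, the best known disulfide isomerase, read 4167, 4425 and 4061 on the no siRNA arrays, 4167, 4183 and 3835 on the non-targeting arrays, 5242, 4402 and 3940 on the cyclin D1 siRNA arrays and 4158, 4311 and 4797 on the CDK4/6 siRNA arrays. The highest array of PDIA6 was cyclin D1 siRNA 3 and that of P4HB was cyclin D1 siRNA 1. HSP90B1, the ER form of HSP90, was among the brightest at 11224 to 13761, and the co-chaperone DNAJB11 had the smallest ratio of the genes that passed, 1.11. The lectin chaperones CALR and CANX ranged from 1517 to 2029 and from 1238 to 1478. The other folding genes were HYOU1, an exchange factor for BiP (669 to 844), CRELD2 (1018 to 1240) and SDF2L1 (2080 to 2439).

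The 7 genes with an ERSE had their highest levels on 5 different arrays. HSPA5 was highest on non-targeting array 1, HSP90B1 on CDK4/6 siRNA array 2, CALR and CRELD2 on CDK4/6 siRNA array 3, CANX on non-targeting array 1, PDIA6 on cyclin D1 siRNA array 3 and XBP1 on no siRNA array 3. Their ratios lay between 1.19 for CANX and 1.56 for HSPA5.

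In the branch of XBP1, ATF6 and degradation, XBP1, the factor made from the mRNA that IRE1 splices, read 1852, 1496 and 1927 on the no siRNA arrays, 1512, 1687 and 1477 on the non-targeting arrays, 1837, 1600 and 1671 on the cyclin D1 siRNA arrays and 1672, 1787 and 1480 on the CDK4/6 siRNA arrays. Under the labels the groups overlapped. By array, however, the 6 arrays with CCND1 above 13600 were also the 6 highest in XBP1, at 1672 to 1927, and the 6 with CCND1 of 5100 or less read 1477 to 1671. The gap between these sets was small, from 1671 to 1672. The other XBP1 probe had the same 6 arrays on top, at 1337 to 1438 against 1167 to 1300. The same 6 highest arrays as CCND1 were found for 0.449% of all genes and, among the 35, for XBP1 alone. These arrays were again picked by their values after these were seen, the pattern was not tested, and neither probe tells spliced from unspliced XBP1 here.

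SEL1L, an adaptor of the ubiquitin ligase that clears misfolded protein, read 69.8, 66.3 and 67.7 on the no siRNA arrays, 59.8, 72.5 and 68.3 on the non-targeting arrays, 77.4, 58.6 and 70.3 on the cyclin D1 siRNA arrays and 71.9, 73.9 and 65.1 on the CDK4/6 siRNA arrays. The cyclin D1 siRNA group held both its highest and its lowest array. ATF6, the sensor, read 2234, 2378 and 2542 on the no siRNA arrays, 2345, 2356 and 2019 on the non-targeting arrays, 2618, 2272 and 2242 on the cyclin D1 siRNA arrays and 2211, 2659 and 2540 on the CDK4/6 siRNA arrays. DNAJC3, a co-chaperone that inhibits PERK, read 142, 145 and 116 on the no siRNA arrays, 130, 130 and 122 on the non-targeting arrays, 140, 136 and 125 on the cyclin D1 siRNA arrays and 135, 123 and 123 on the CDK4/6 siRNA arrays. For these genes every group overlapped the non-targeting arrays. DNAJB9, a co-chaperone and XBP1 target, ranged from 459 to 570 and EDEM1, a lectin of degradation, from 212 to 263.

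The branch of PERK and ATF4 held 3 of the 5 genes with a ratio of at least 1.5. ATF4 read 358, 320 and 454 on the no siRNA arrays, 345, 421 and 467 on the non-targeting arrays, 334, 423 and 333 on the cyclin D1 siRNA arrays and 428, 314 and 390 on the CDK4/6 siRNA arrays. Its 6 highest arrays were the 6 highest of PPIB: CDK4/6 siRNA 1 and 3, cyclin D1 siRNA 2, non-targeting 2 and 3 and no siRNA 3. The other ATF4 probes were at or near background (38.0 to 44.7 and 44.2 to 54.3) and could not check this.

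**Figure D2:**
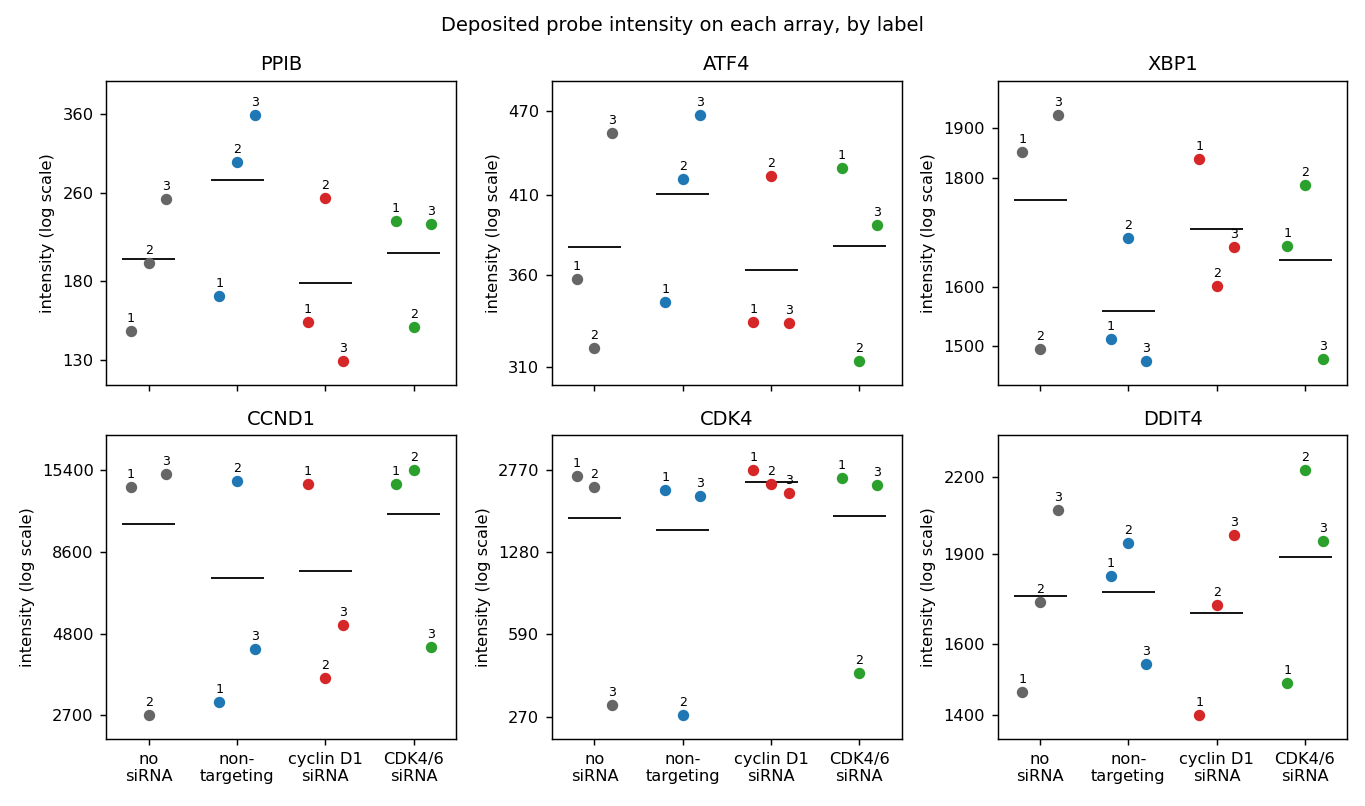
Points give the deposited intensity of 6 genes on each array on a log scale, by label, with the replicate number beside each point and the mean of the 3 arrays as a line. CCND1 falls into separate levels within every label, and CDK4 within every label but cyclin D1 siRNA. PPIB and ATF4 spread without a gap, and the high arrays of PPIB and ATF4 carry the same numbers.

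Across the 12 arrays PPIB and ATF4 were correlated on the log2 scale, with Pearson r = 0.876 and Spearman rho = 0.797. Without the 2 arrays farthest from the median of PPIB, r was 0.841. The pair was chosen because it had the same 6 highest arrays, so the 3 relations computed are descriptions and are given with no p. The others set each gene against the main axis of variation between arrays, the first principal component, of all genes but PPIB and ATF4. With these 2 genes included, the first component held 22.9% of the variance. PPIB had r = 0.871 with the component of the other genes (rho = 0.832, and r = 0.850 without 2 arrays). ATF4 had r = 0.820 (rho = 0.769, and r = 0.787 without 2 arrays). Of all genes, 406 (2.99%) had r above 0.8 with PPIB and 66 had r below -0.8, and ATF4 held rank 177 among the genes most like PPIB. No scan order, chip or RNA quality value is in the sources used here, and their part in this axis was not tested.

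**Figure D3:**
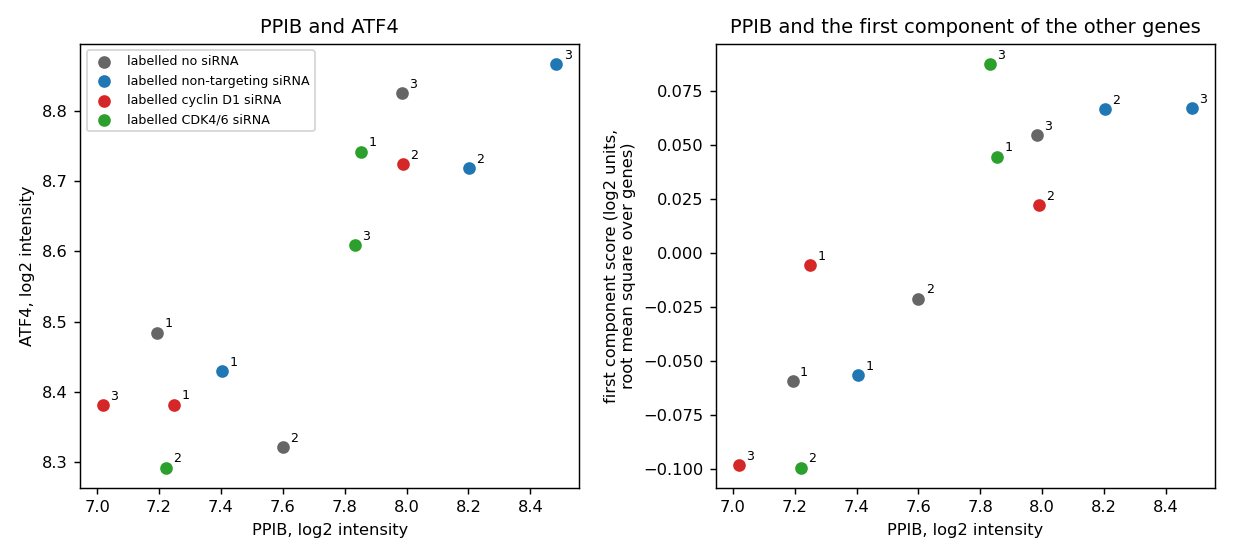
Each point is an array, coloured by label with its replicate number. The left panel sets log2 PPIB against log2 ATF4 (r = 0.876) and the right panel against the score of the array on the first component of the other genes (r = 0.871). Arrays of every label lie in both the low and the high range of PPIB, and the 2 highest are non-targeting arrays (295 and 358).

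The other genes did not follow PPIB as a group. Of the other 34 that passed, ATF4 and CHAC1, which degrades glutathione and is an ATF4 target, shared at least 5 of the 6 highest arrays of PPIB (5.88%, beside 9.48% of all genes). PDIA6 shared at most 1 (2.94%, beside 9.60%). HSPA5, XBP1 and DDIT3 shared 3 each.

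Among the targets of this branch, SLC3A2, the heavy chain of amino acid transporters, read 309, 284 and 323 on the no siRNA arrays, 315, 239 and 291 on the non-targeting arrays, 213, 293 and 377 on the cyclin D1 siRNA arrays and 264, 341 and 202 on the CDK4/6 siRNA arrays. ATF3, a stress-induced transcription factor, read 1682, 927 and 1265 on the no siRNA arrays, 1037, 1067 and 1223 on the non-targeting arrays, 1288, 929 and 1356 on the cyclin D1 siRNA arrays and 1372, 1435 and 1115 on the CDK4/6 siRNA arrays. SLC3A2 was highest on cyclin D1 siRNA array 3 and lowest on CDK4/6 siRNA array 3, the extremes of ATF3 were both labelled no siRNA, and every group overlapped the non-targeting arrays. DDIT4, an inhibitor of mTORC1 signalling, read 1461, 1735 and 2065 on the no siRNA arrays, 1822, 1941 and 1542 on the non-targeting arrays, 1399, 1725 and 1971 on the cyclin D1 siRNA arrays and 1486, 2230 and 1949 on the CDK4/6 siRNA arrays. Its 3 lowest arrays, at 1399 to 1486, were number 1 of the CDK4/6 siRNA, no siRNA and cyclin D1 siRNA groups, the 3 on which CCND1 and CDK4 were both high. Non-targeting array 3 came next at 1542, and the largest step of DDIT4, 1.12-fold, lay above that array. The 3 arrays were set apart by measured levels after these were seen. The share of all genes with this order was not counted, and the pattern was not tested. DDIT3, the pro-apoptotic factor CHOP, read 309, 268 and 301 on the no siRNA arrays, 280, 256 and 294 on the non-targeting arrays, 268, 243 and 322 on the cyclin D1 siRNA arrays and 286, 314 and 271 on the CDK4/6 siRNA arrays. Its ratio of 1.32 was that of the median of the 35 genes, and the highest and lowest arrays both carried the cyclin D1 siRNA label.

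The remaining genes of the branch had ratios between 1.23 for SESN2 and 1.49 for EIF2AK3. PPP1R15A (GADD34, which restores translation) ranged from 5783 to 7825, SLC7A5, the light chain partner of SLC3A2, from 6579 to 8953, and CEBPB, a transcription factor, from 3188 to 4371. The serine and asparagine synthesis genes ranged from 1071 to 1371 for ASNS, 356 to 512 for PHGDH, 165 to 243 for PSPH and 55.1 to 71.1 for PSAT1. TRIB3, a pseudokinase that inhibits ATF4 activity, ranged from 653 to 837, EIF2AK3 from 71.9 to 107, SLC7A11, the cystine transporter, from 99.2 to 132, CHAC1 from 55.9 to 74.3 and SESN2, a sestrin of nutrient stress, from 47.4 to 58.1. The last lies close to background.

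The tests asked whether the labelled groups differed, each against the non-targeting arrays, which the 3 comparisons share. Every labelled group holds arrays with high and with low CCND1. CDK4 read 2561, 409 and 2408 on the CDK4/6 siRNA arrays and 2289, 275 and 2167 on the non-targeting arrays. In sample order the levels of CCND1 and CDK4 ran in blocks of neighbouring arrays, which the labels cross. The tests thus compare the labels as deposited and may not compare the treatments. After Benjamini-Hochberg adjustment in limma 0 of the 35 genes were called in any comparison. The same was true of 0 of 13601 genes (0% of all genes in each comparison), with CCND1, CDK4 and CDK6 among those tested. The smallest adjusted p in a comparison was 1.0 when rounded. For cyclin D1 siRNA the median log2 difference was 0.02 over the 35 genes and 0.0032 over all genes, for CDK4/6 siRNA 0.05 and 0.0042, and for no siRNA 0.03 and 0.0037. All fold changes are differences of log2 intensity after a background correction that adds 50, which understates changes of dim genes.

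Before adjustment 2 of the 35 genes had p under 0.05 in each comparison, where 3.04% of all genes did for cyclin D1 siRNA, 1.82% for CDK4/6 siRNA and 1.82% for no siRNA. They were SESN2, higher by 0.13, 0.13 and 0.14 than on the non-targeting arrays (SE 0.05), and PSPH, the phosphatase of the last step of serine synthesis, which was lower with differences of -0.27, -0.21 and -0.24 (SE 0.09). PSPH read 243, 214 and 229 on the non-targeting arrays, 189, 192 and 191 on the no siRNA arrays, 165, 222 and 176 on the cyclin D1 siRNA arrays and 190, 187 and 208 on the CDK4/6 siRNA arrays. The non-targeting arrays that all comparisons share were its 3 highest but for cyclin D1 siRNA array 2, and the dimmer PSPH probe, at 78.0 to 136, ordered the arrays differently. Groups that did not overlap were seen for 2 genes with cyclin D1 siRNA (SESN2 and PDIA3), 2 with CDK4/6 siRNA (SESN2 and PSPH) and 3 with no siRNA (SESN2, PSPH and DNAJB9). All genes gave 7.63%, 6.12% and 6.65%. PDIA3 was above background on 0 of 3 non-targeting arrays, and its fold is not printed here. It is still drawn in the figure of log2 differences and counted in the medians over the 35 genes.

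PPIB had the largest differences of the 35. They were -0.56 for cyclin D1 siRNA (95% interval -1.20 to 0.08), -0.37 for CDK4/6 siRNA (-1.0 to 0.27) and -0.41 for no siRNA (-1.04 to 0.23), each with SE 0.29 and an adjusted p of 1.0 in limma, and the sign is that of the 2 high non-targeting arrays. ATF4 had -0.17, -0.12 and -0.12 (SE 0.15). HSPA5 had -0.10, -0.14 and -0.13 (SE 0.15) and XBP1 0.13, 0.08 and 0.17 (SE 0.10). ATF3 had 0.09, 0.23 and 0.18 (SE 0.20), SLC3A2 0.03, -0.08 and 0.12 (SE 0.20) and DDIT4 -0.06, 0.08 and -0.02 (SE 0.17). For DDIT3 the values were -0.0016, 0.06 and 0.08 (SE 0.10). Each interval held 0. For the cyclin D1 siRNA label it ran from -0.21 to 0.21 for DDIT3 and from -0.43 to 0.23 for HSPA5. A difference between the labelled groups within these bounds could be present. The intervals do not bound an effect of lower CCND1, since both groups hold arrays with high and with low CCND1.

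**Figure D4:**
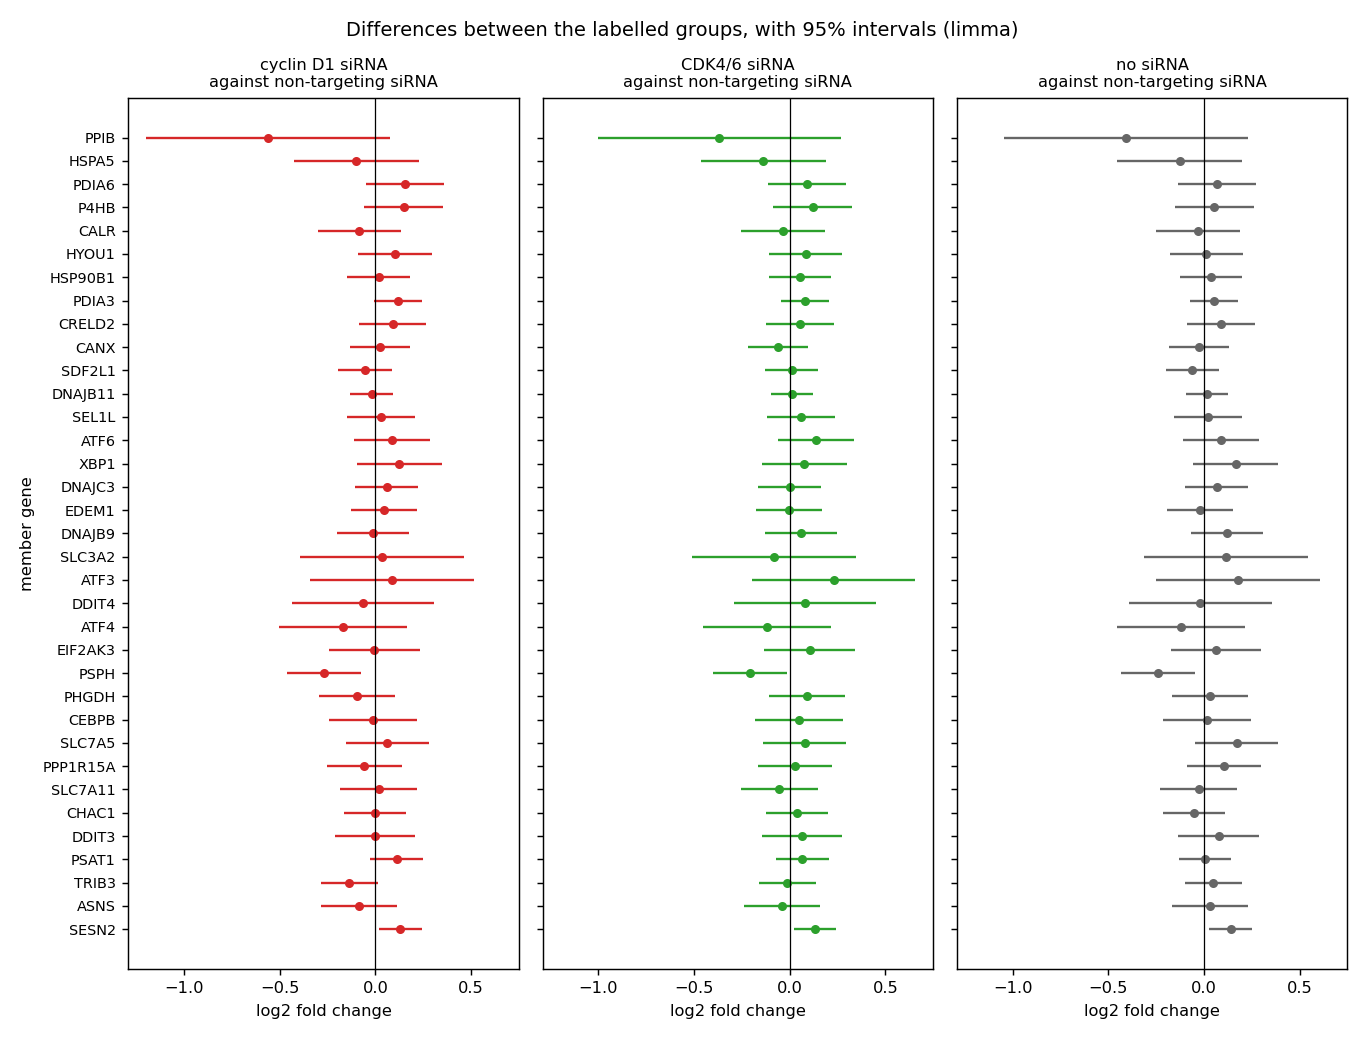
Points give the log2 difference of each gene from the non-targeting arrays and lines its 95% interval from limma, 1 panel for each comparison. PPIB has the widest interval in every panel, and SESN2 and PSPH are the 2 genes whose intervals leave out 0 in each.

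Related genes outside the 40 gave the same counts, with 0 called in any comparison. Of the other cyclophilins 5 were tested, and the largest ratios were those of PPIG (2.24, from 57.3 on cyclin D1 siRNA array 3 to 128 on non-targeting array 2) and PPID (1.55). The lowest array of PPIG was that of PPIB, but also that of genes such as EIF2AK3 and EDEM3. The other cyclophilins tested, PPIC, PPID, PPIE and PPIF, were lowest on other arrays. PPID and PPIF were highest on non-targeting array 3, as was PPIB, while PPIC and PPIE were highest on no siRNA arrays 2 and 1. Of 17 other folding genes the largest were the oxidase ERO1B (1.66) and the co-chaperone DNAJC1 (1.65). Of 22 genes of degradation, translocation and transport the largest were the ubiquitin-conjugating enzyme UBE2J1 (2.09) and EDEM3 (1.71). UBE2J1 read 520, 499 and 508 on the arrays with number 3 of cyclin D1 siRNA, CDK4/6 siRNA and non-targeting siRNA and 786 to 1042 on the other 9. On those 3 arrays CCND1 lay between 4311 and 5100, and they are also neighbours in sample order, so the 2 cannot be told apart. UBE2J1 was picked after its values were seen. The share of all genes with this separation was not counted, and the pattern was not tested. Of 24 other ATF4 targets the largest were NUPR1, a stress-induced chromatin protein (1.80, from 597 to 1073), and CARS1, a tRNA synthetase (1.64, from 238 to 390). The lowest and highest arrays of NUPR1, CDK4/6 siRNA 2 and non-targeting 3, were those of ATF4. They were also those of the cyclophilin PPID. How many of all genes have these extremes was not counted, and the match was not tested.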

How the data were processed

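RNA of MDA-MB-231 cells, labelled as 4 groups of 3, was hybridised to Illumina BeadChips. The deposited values are linear intensities per probe, which the authors had normalized, since at 99.97% of the ranks the arrays' sorted values lay within 0.5% of each other. Background was still in them (range 28 to 20972, median 44.1). No source used here names the software, and the article points to earlier work for the array methods. A further table holds 24 per-sample columns of intensities before normalization and detection p-values, whose names match no label, and these 24 were not used.

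Background correction was by normexp (offset 50) and normalization by quantiles, in R 4.3.3 with limma 3.58.1, before log2 values were taken. Background was the mode of all intensities (39.4) with the SD of values below it (2.91). A probe was tested if above 44.2 (one-sided p of 0.05) on at least 3 arrays, which kept 27229 probes (55.8%). 1 fit over the 4 groups (lmFit and eBayes, two-sided, 8 residual degrees of freedom) was adjusted by Benjamini-Hochberg over all probes tested, with a threshold of 0.05. The number of arrays limits the precision. A gene was read from its brightest tested probe with 1 symbol, which gave 13601 genes. The annotation gives 27578 probes 1 symbol, 13 several and 21212 none, and 27541 Entrez numbers were found in the RefSeq gene table. At most 0.698% of probes tested were identical on 2 arrays.

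All 40 genes are named, with values on every array for the 4 largest ratios of each branch and for PPIB, HSPA5, XBP1, ATF4 and DDIT3, and the 2 largest ratios of each further list. Values of PSPH and UBE2J1 by array were added after they were seen. Genes and lists were chosen with earlier results of these data known. Promoters are RefSeq windows. The fit was tested on simulated data. The alternatives were the background correction, the second normalization, the filter, the arrays in the fit, the replicate block, array weights, the methods' t-test, the mean over probes and leaving out each replicate. Another PPIB probe could not be tried, since the table has 1.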

Additional observations from a re-analysis of the deposited data

How the results depend on the processing

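0 genes were called in any of the 3 comparisons under the 10 alternatives or without any 1 array, and the smallest adjusted p of the 8 genes followed was 0.911. The methods' t-test gave 327, 265 and 274 genes at an unadjusted p under its threshold for cyclin D1, CDK4/6 and no siRNA, of which 1, 2 and 1 were among the 40, and 0 after Benjamini-Hochberg. None of the 240 differences of the 8 genes changed sign under those 10 alternatives, but for many of them this was fixed beforehand. The filter, the arrays in the fit, the replicate block and the t-test leave a difference of group means as it is. The mean over probes leaves it so for a gene with 1 tested probe. When an array was left out, 18 of 144 differences changed sign. Leaving out 1 array in turn, the log2 difference ranged for cyclin D1 siRNA from -0.22 to 0.089 for HSPA5, -0.11 to 0.084 for DDIT3, -0.18 to 0.066 for DDIT4, -0.016 to 0.25 for ATF3 and -0.15 to 0.23 for SLC3A2. For CDK4/6 siRNA it ranged from -0.23 to 0.0036 for ATF4, -0.048 to 0.24 for DDIT4 and -0.26 to 0.094 for SLC3A2, and for no siRNA from -0.14 to 0.10 for DDIT4 and -0.030 to 0.39 for ATF3. The causes were not tested. PPIB stayed below the non-targeting arrays, at -0.85 to -0.35 for cyclin D1 siRNA, -0.66 to -0.16 for CDK4/6 siRNA and -0.70 to -0.19 for no siRNA, each nearest to 0 without non-targeting array 3. The ratio of its highest to its lowest array was 3.53 with the background mode subtracted and 2.54 after normexp and quantile normalization, against 2.76.

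With the replicate number as a block 0 of the 35 genes were called in each comparison. Same-numbered arrays of different groups had correlated deviations over 0.1 in 10 of 18 pairs (r from -0.24 to 0.42). Their median r was 0.14, against -0.048 for other pairs. The deviations were taken from the means of labels that mix CCND1 levels, so they cannot settle whether a shared number is a pair. It was not read as one. Dim genes are limited by their signal over background, as the level of 44.2 lies close to SESN2, PDIA3, PSAT1 and CHAC1.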
